A study of Homo sapiens with 12 samples.

Results

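Nuclear genes encode most protein subunits of the oxidative phosphorylation machinery of the mitochondrial inner membrane. Their transcripts were followed here in human cells labelled as liver-tumour lines and treated with geniposide, a plant iridoid found in gardenia. Complexes I and II feed electrons to ubiquinone, complex III hands them to cytochrome c, and complex IV passes them to oxygen. Complexes I, III and IV move protons out of the matrix, and complex V, the ATP synthase, lets them return and makes ATP. Complex II is the one respiratory complex built from nuclear-encoded subunits alone, since the other complexes also hold subunits read from mitochondrial DNA.

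The genes were chosen by symbol from the deposited table of gene expression. Protein-coding genes outside the mitochondrial genome were taken where the symbol was NDUFA, NDUFB, NDUFC, NDUFS or NDUFV with a number, SDHA to SDHD, or began with UQCR, COX4 to COX8 or ATP5, and NDUFAB1, CYC1 and CYCS were added. This gave 91 of 58735 genes, or 91 of 19938 protein-coding genes outside the mitochondrial genome. Complex I had 37 of them, complex II 4, complex III 10 and complex V 18. Complex IV had 18, with NDUFA4 counted there because its protein is a subunit of cytochrome c oxidase despite its name. CYCS, for cytochrome c, stood alone. The other 3 were kept apart from the complexes: ATP5IF1 (the inhibitor of the ATP synthase), ATP5S (coupling factor B) and ATP5MF-PTCD1 (a read-through of neighbouring genes).

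The 12 poly(A)-selected libraries fell into 4 groups of 3: HepG2-labelled cells given geniposide, HepG2-labelled control cells, Huh7-labelled cells given geniposide, and Huh7-labelled control cells. All carried a 48 h tag. No dose, vehicle or genetic change was given in the sources used here, and nothing said whether the 3 samples in a group were grown as separate cultures. The p-values then measure no more than the spread between the samples, and that spread may be technical. HepG2 is a hepatoblastoma line and Huh7 a hepatocellular carcinoma line, and the study's title ties geniposide to ferroptosis, an iron-dependent form of cell death. The deposited values are FPKM, fragments scaled to gene length and library size, which allow levels of different genes to be set side by side.

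Each library held between 15056655 and 17211659 gene-assigned fragments, recovered from the whole-number steps of the FPKM values. The hepatocyte markers did not match the labels. Over all 12 libraries together ALB had 6 fragments, TTR 3, APOB 0 and the hepatoma marker AFP 2, and CPS1, at a mean of 229.8 FPKM in geniposide-treated and 239.6 FPKM in control HepG2-labelled cells, was the 1 gene of the 10 hepatocyte markers to reach 1 FPKM in any group. The cell lines are therefore named by their labels only. The summed cholangiocyte markers, mostly KRT7, were at 72.4 to 75.9 FPKM in geniposide-treated HepG2-labelled libraries and 275 to 288 FPKM in their controls. The summed fibroblast markers were at 44.5 to 46.6 FPKM with geniposide and 36.5 to 38.1 FPKM in control HepG2-labelled libraries. The members of that sum were split. COL3A1 and DCN averaged 22.9 and 10.4 FPKM with geniposide and 14.7 and 6.32 FPKM in these controls. COL1A1 and PDGFRB went the other way, at 10.3 and 2.09 FPKM with geniposide and 11.9 and 4.33 FPKM in controls, and COL1A2 was at 0. In Huh7-labelled libraries the 4 summed hepatoma markers, mostly GPC3, were at 8.67 to 24.1 FPKM with geniposide and 25.7 to 27.8 FPKM in controls. Their part in the results on the subunit genes was not tested, and in bulk samples fewer cells of a type and less RNA per cell cannot be told apart. The third geniposide library of Huh7-labelled cells stood apart from its 2 partners, with a chi-square per degree of freedom of 43.4 and 44.9 against them, where those 2 differed by 3.01 and pairs in the other groups by 2.20 to 6.58. Results on Huh7-labelled cells are given with and without it where it mattered.

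The start regions of 5 genes are shown because these genes mark the range of responses described below: ATP5MC1 fell most, ATP5MC2 makes the same mature subunit and was not called, SDHB fell in both lines, CYCS was raised in 1 library, and COX6A1 was higher in Huh7-labelled cells. Each line runs 5′ to 3′ on the gene's strand from 250 bases before to 50 bases after the start in RefSeq's GRCh38.p14 annotation. The windows are chr17:48892537-48892836 (plus strand) for ATP5MC1, chr12:53676034-53676333 (minus) for ATP5MC2, chr1:17053983-17054282 (minus) for SDHB, chr7:25125211-25125510 (minus) for CYCS and chr12:120437863-120438162 (plus) for COX6A1. Capitals mark GCATGCGC, the core of the site read by NRF1 (nuclear respiratory factor 1), on either strand, and AAGATGGC, the core read by YY1.
ATP5MC1: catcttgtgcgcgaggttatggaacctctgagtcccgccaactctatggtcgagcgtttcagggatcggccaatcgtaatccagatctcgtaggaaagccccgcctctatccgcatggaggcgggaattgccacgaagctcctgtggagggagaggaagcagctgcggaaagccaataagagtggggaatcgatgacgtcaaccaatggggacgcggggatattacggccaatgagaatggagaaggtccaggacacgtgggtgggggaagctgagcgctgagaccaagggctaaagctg
ATP5MC2: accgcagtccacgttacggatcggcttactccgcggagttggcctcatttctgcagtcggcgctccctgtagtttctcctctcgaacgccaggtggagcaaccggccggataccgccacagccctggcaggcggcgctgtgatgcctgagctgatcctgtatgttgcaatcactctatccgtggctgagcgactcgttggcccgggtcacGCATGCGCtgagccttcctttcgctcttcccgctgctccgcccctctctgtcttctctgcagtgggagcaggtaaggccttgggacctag
SDHB: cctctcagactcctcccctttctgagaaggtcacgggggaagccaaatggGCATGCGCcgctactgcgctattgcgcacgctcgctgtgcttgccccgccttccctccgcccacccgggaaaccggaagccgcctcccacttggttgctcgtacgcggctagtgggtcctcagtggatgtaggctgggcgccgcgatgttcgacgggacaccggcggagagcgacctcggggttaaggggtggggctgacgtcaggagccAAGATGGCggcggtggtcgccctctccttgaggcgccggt
CYCS: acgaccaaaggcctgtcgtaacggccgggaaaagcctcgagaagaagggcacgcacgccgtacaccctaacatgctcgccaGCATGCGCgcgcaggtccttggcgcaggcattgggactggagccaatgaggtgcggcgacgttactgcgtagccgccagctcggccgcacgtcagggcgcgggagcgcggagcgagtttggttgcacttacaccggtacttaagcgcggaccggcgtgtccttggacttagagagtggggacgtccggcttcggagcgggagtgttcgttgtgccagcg
COX6A1: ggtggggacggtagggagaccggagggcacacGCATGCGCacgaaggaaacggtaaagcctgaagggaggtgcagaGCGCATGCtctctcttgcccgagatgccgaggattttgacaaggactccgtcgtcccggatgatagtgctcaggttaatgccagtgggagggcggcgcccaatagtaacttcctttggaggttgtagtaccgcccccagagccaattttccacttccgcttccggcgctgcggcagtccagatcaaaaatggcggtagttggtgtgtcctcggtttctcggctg
The ATP5MC2, SDHB and CYCS windows held 1 NRF1 core each and COX6A1 held 2, one on each strand, while SDHB also held 1 YY1 core and ATP5MC1 held none of these letters. Another motif, the ETS core CCGGAAGT, was searched in the same way and was in none of the 5 windows. Promoter windows were found for 69 of the 91 genes. GCATGCGC was in 14 of them (20.3%), against 4.26% of all 15843 promoter windows. AAGATGGC was in 11 (15.9%), against 3.91%, and CCGGAAGT in 9 (13.0%), against 6.19%. The matches in the 5 windows did not overlap each other, and 28 windows (40.6%) held at least 1 of them, against 13.2% of all. A match describes letters in a window and is not a site or a cause.

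By the median of the tested genes, levels were well above 1 FPKM in every group, though single genes lay below it. Over the 12 libraries the median level of the 83 tested genes was 27.0 FPKM, with complex III highest at 51.1 FPKM, then complex IV at 37.9, complex V at 28.9, complex II at 23.5 and complex I at 16.0 FPKM. ATP5F1B, the catalytic beta subunit of the ATP synthase, had the highest level of all at 428 FPKM. NDUFS5 led complex I at 178 FPKM, COX8A complex IV at 170.4 FPKM, CYC1 complex III at 116 FPKM and SDHA complex II at 47.4 FPKM. These ranks of genes and complexes depend on the annotated exonic lengths by which the fragments were divided. The lowest levels among tested genes were those of COX8C at 0.421 FPKM, NDUFV2 at 0.801 FPKM and NDUFA13 at 0.909 FPKM. COX8A shares 34.5% of its exonic length with other genes, NDUFA13 21.0% and NDUFV2 28.4%, so their levels are uncertain.

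Of the 91 genes, 83 reached 1 FPKM in at least 3 libraries and were tested among 15518 genes. The other 8 were listed at 0 or below 1 FPKM in every library, where 3 fragments in a gene of 1 kb correspond to 0.161 to 0.212 FPKM by counting error alone. COX4I2 and COX7B2, tissue-restricted isoforms of complex IV subunits, were listed at 0 in all 12 libraries. COX6A2, the heart and muscle isoform of COX6A, was at 0 except for 0.497 FPKM in the third geniposide library of Huh7-labelled cells. The testis isoform COX6B2 ranged from 0.0705 to 0.656 FPKM, and COX7A1, the heart and muscle isoform of COX7A, from 0 to 0.421 FPKM. NDUFA7 of complex I ranged from 0.233 to 0.837 FPKM, but it shares 33.5% of its exonic length with other genes, so its level is uncertain. ATP5MGL, a copy of the ATP5MG gene, was at 0 except for 0.0722 FPKM in 1 control library of Huh7-labelled cells, and ATP5MF-PTCD1 did not exceed 0.101 FPKM. NDUFV2, NDUFA13 and COX8C passed the filter only through the group where they were highest.

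With geniposide, HepG2-labelled cells had lower levels of most of these genes. By limma's moderated test with Benjamini-Hochberg adjustment over all 15518 genes, 58 of 83 were lower (69.9%) and 0 were higher at an adjusted p under 0.05, whereas 21.5% of all tested genes were lower and 21.0% higher. Among the 7901 tested genes with a mean of 5 FPKM or more, which is nearer to the level of the subunit genes, 31.9% were lower and 21.9% higher. The median log2 change of the 83 was -0.40, against 0.00 over all tested genes. For 68 of them all 3 geniposide libraries lay below all 3 controls, for 2 they lay above and for 13 the groups overlapped, where 29.4% of all tested genes lay wholly below and 29.4% wholly above. All changes are geniposide minus control on the log2(FPKM + 1) scale, which understates the change of low genes.

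In Huh7-labelled cells fewer genes moved. There 32 of 83 (38.6%) were lower and 3 were higher, against 18.1% and 16.4% of all tested genes and 27.7% and 16.0% of those with a mean of 5 FPKM or more. The median log2 change was -0.17, against 0.00 over all tested genes. The groups were wholly lower for 35 genes, wholly higher for 5 and overlapping for 43, where 22.6% of all tested genes were wholly lower and 21.3% wholly higher. The 5 include COX8C and NDUFA13, and the 3 higher calls include COX8C. Both genes passed the filter only through the geniposide group of Huh7-labelled cells, so their separation supports nothing. Without the third geniposide library 44 were lower and 3 higher, with 31 of the lower calls shared, and the median was -0.21, while 23.5% of all tested genes were then lower and 22.6% higher. That library had the highest level of its group for 55 of the 83 genes and the lowest for 20.

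The subunit genes together took 0.635%, 0.611% and 0.675% of the fragments in geniposide-treated HepG2-labelled libraries, against 0.898%, 0.889% and 0.888% in their controls. In Huh7-labelled cells they took 0.827%, 0.837% and 0.895% with geniposide, against 0.954%, 0.917% and 0.945% in controls. These shares do not overlap between groups in either line and do not depend on the authors' scaling. Other parts of the libraries moved with treatment as well. The share of fragments from long non-coding RNA genes was 1.47% to 1.51% with geniposide and 1.12% to 1.17% in control HepG2-labelled cells. In Huh7-labelled cells it was 1.86% to 2.06% with geniposide and 1.68% to 1.74% in controls. MT-RNR2, the mitochondrial large ribosomal RNA, was at 4837 to 5157 FPKM with geniposide and 4034 to 4274 FPKM in control HepG2-labelled cells. In Huh7-labelled cells MT-RNR2 was at 3486 to 4201 FPKM with geniposide and 1375 to 1423 FPKM in controls. The part of these shifts in the lower subunit levels was not tested.

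**Figure D1:**
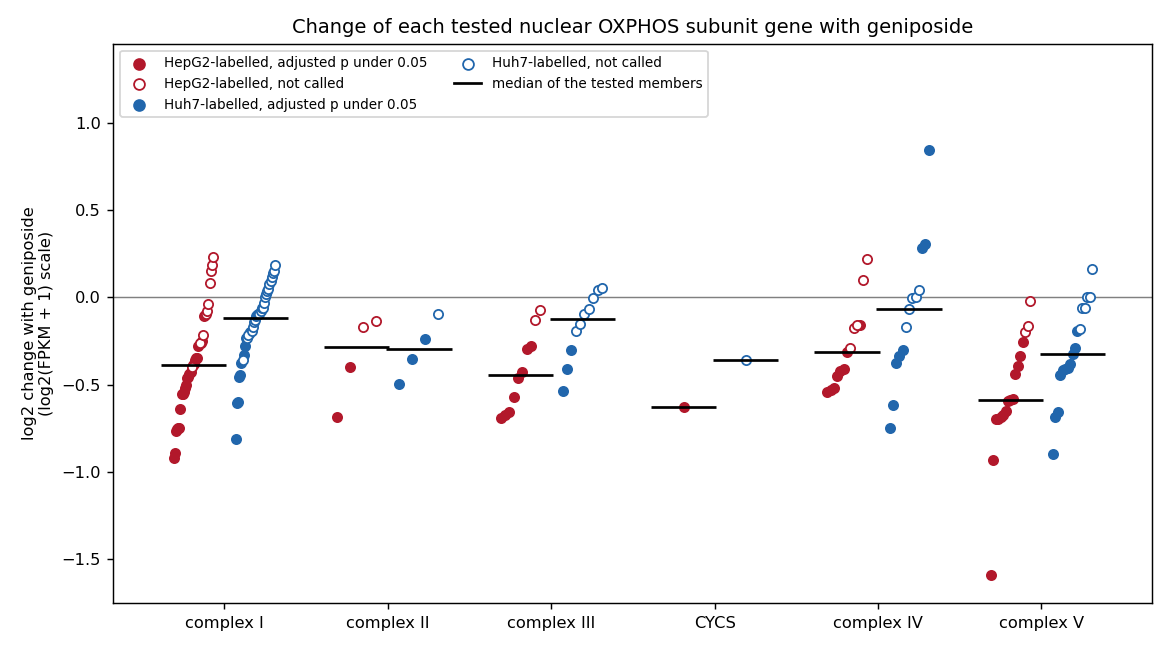
Log2 change with geniposide (log2(FPKM + 1) scale, vertical axis) of each tested subunit gene, grouped by complex, with HepG2-labelled cells left of Huh7-labelled cells. Points are genes, filled where the adjusted p was under 0.05, and bars are medians. In HepG2-labelled cells the medians ran from -0.28 in complex II to -0.59 in complex V.

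Complex V had the lowest median of the 5 complexes in both lines when all 12 libraries were fitted. In HepG2-labelled cells 14 of its 17 tested genes were lower and 0 higher, with a median log2 change of -0.59. Complex III followed with 8 of 10 lower and a median of -0.45, then complex I with 24 of 36 and -0.39, complex IV with 8 of 13 and -0.31, and complex II with 2 of 4 and -0.28. In Huh7-labelled cells complex V had 11 of 17 lower and a median of -0.32, and complex II had 3 of 4 and -0.30. Without the third geniposide library of Huh7-labelled cells the order of these medians turned, at -0.35 for complex V and -0.37 for complex II. Complex I had 10 of 36 lower with a median of -0.12, and complex III 3 of 10 with -0.13. Complex IV had 5 of 13 lower and 3 higher with a median of -0.07, which turned to 0.01 when values were scaled to TPM or refitted from recovered fragments with voom. Over all alternatives that median ran from -0.119 to 0.01. COX8C is counted among the 13 and the 3, though it passed the filter only through the geniposide group of Huh7-labelled cells and its call supports nothing. These counts stand beside the shares of all tested genes given above.

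The gap between complexes was also read without any scaling, as the mean log2 FPKM of a complex minus the mean over the 82 tested genes with a value above 0 in every library, read in the same library. For complex V this was 0.31 with geniposide and 0.47 in control HepG2-labelled cells, and 0.33 with geniposide and 0.44 in control Huh7-labelled cells. All 3 geniposide libraries lay below all 3 controls in both lines, with differences of -0.16 in HepG2-labelled and -0.11 in Huh7-labelled cells. With the 3 c-subunit genes left out the differences were -0.11 in HepG2-labelled and -0.07 in Huh7-labelled cells and the groups still did not overlap, an alternative chosen after seeing the data. Complex IV was 0.09 higher relative to all subunit genes in HepG2-labelled cells, without overlap, and 0.04 higher in Huh7-labelled cells, with overlap. Complex I was 0.04 higher in HepG2-labelled cells without overlap and overlapped in Huh7-labelled cells. Its mean holds NDUFV2 and NDUFA13, which passed the filter only through the group where they were highest. NDUFV2 and NDUFA13 averaged 1.33 and 0.920 FPKM with geniposide and 0.983 and 0.691 FPKM in control HepG2-labelled cells. The gap of complex I is therefore not read as a result, and the mean over the 82 genes holds both as well. Complex III was 0.02 lower in HepG2-labelled cells with overlap and 0.04 higher in Huh7-labelled cells without overlap. Complex II was 0.10 lower in Huh7-labelled cells without overlap, while in HepG2-labelled cells it was 0.06 higher with overlap. No test was made on these means.

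**Figure D2:**
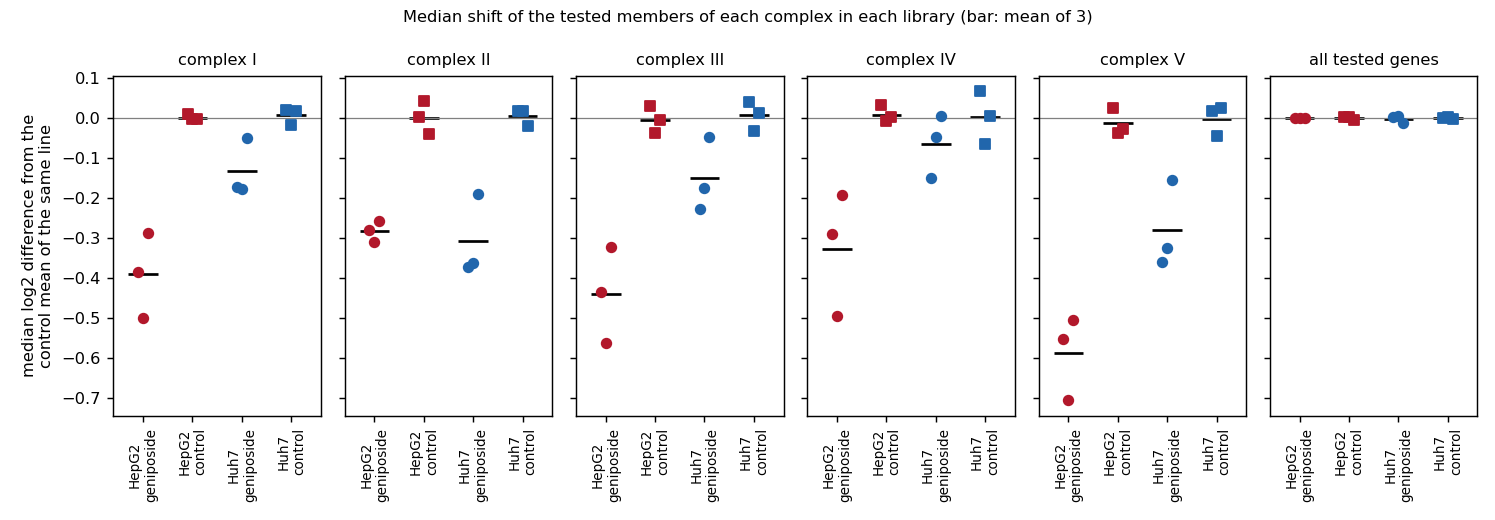
Median log2 difference from the control mean of the same line (vertical axis) over the tested genes of each complex, 1 point per library, with bars at the mean of 3. Complex V lay at -0.55, -0.71 and -0.51 in the geniposide-treated HepG2-labelled libraries and at -0.36, -0.32 and -0.15 in those of Huh7-labelled cells, the last value being the third library.

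Complex I takes electrons from NADH through a flavin and a chain of iron-sulphur clusters. Of its core subunits, NDUFS1, the large iron-sulphur subunit, had 8.59, 8.63 and 8.38 FPKM with geniposide and 13.2, 12.7 and 13.1 FPKM in control HepG2-labelled cells, a fall of 0.55 (SE 0.10, adjusted p = 0.00127 by limma). In Huh7-labelled cells NDUFS1 had 11.0, 10.4 and 15.0 FPKM with geniposide and 12.5, 12.6 and 12.4 FPKM in controls. The third geniposide library lay above all controls and the others below, and the change of -0.06 was not called (adjusted p = 0.701). Without that library the change was -0.21 and called (adjusted p = 0.000794 by limma).

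The other core subunits of the NADH-oxidising arm gave smaller or no changes. NDUFV1, which carries the flavin and the NADH site, had 26.6, 27.0 and 28.3 FPKM with geniposide and 33.7, 34.5 and 31.9 FPKM in control HepG2-labelled cells. The groups were apart, and the fall was 0.28 on the log2 scale (SE 0.047, adjusted p = 0.000714 by limma). In Huh7-labelled cells NDUFV1 averaged 35.0 ± 1.29 FPKM with geniposide and 34.6 ± 0.208 FPKM in controls (SD, n = 3 each), a change of 0.02 with a 95% interval of -0.09 to 0.12. NDUFV2, its partner in the flavin arm, was listed at only 0.278 to 1.61 FPKM, and neither change was called. Its named pseudogene copies held 150 fragments beside 405 for NDUFV2 itself, and 28.4% of its exonic length is shared with other genes, so its level is uncertain.

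NDUFS5, an accessory subunit on the intermembrane-space side (ENSG00000168653, chr1:39026318-39034636, plus strand, hg38), had the highest level in complex I. It had 141, 138 and 147 FPKM with geniposide and 278, 261 and 270.2 FPKM in control HepG2-labelled cells. In Huh7-labelled cells NDUFS5 had 115, 111 and 133 FPKM with geniposide and 186, 172 and 185 FPKM in controls. No geniposide library reached a control of its line. NDUFS5 fell by 0.92 in HepG2-labelled cells (SE 0.070, adjusted p = 3.7e-06 by limma) and by 0.60 in Huh7-labelled cells (SE 0.070, adjusted p = 0.000127), the lowest estimate of complex I in HepG2-labelled cells. The 2 changes differed by -0.32 (adjusted p = 0.0325), a call lost without Huh7-labelled control library 2 or 3, HepG2-labelled control library 1 or 3 or HepG2-labelled geniposide library 1 or 2 (adjusted p 0.0548 to 0.0818), with no filter (0.076) or with the replicate block (0.0508).

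NDUFB6, an accessory subunit of the membrane arm, had 15.3, 14.0 and 17.0 FPKM with geniposide and 27.3, 26.4 and 25.8 FPKM in control HepG2-labelled cells, and 31.6, 29.6 and 35.3 FPKM with geniposide and 47.2, 49.3 and 51.7 FPKM in control Huh7-labelled cells. It was lower in every geniposide library, by 0.75 and 0.61 on the log2 scale in HepG2-labelled and Huh7-labelled cells (adjusted p = 2.98e-05 and 0.000222 by limma). NDUFAB1, the mitochondrial acyl carrier protein, which also serves fatty acid and lipoate synthesis, averaged 28.0 ± 2.40 FPKM with geniposide and 41.6 ± 3.14 FPKM in control HepG2-labelled cells (SD, n = 3 each). In Huh7-labelled cells NDUFAB1 averaged 38.6 ± 2.12 FPKM with geniposide and 53.3 ± 0.847 FPKM in controls. NDUFAB1 fell by 0.56 in HepG2-labelled and 0.46 in Huh7-labelled cells (adjusted p = 0.000135 and 0.000829 by limma).

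NDUFB9, another membrane-arm subunit, differed between the lines, but 21.0% of its exonic length is shared with other genes, so its level is uncertain. It had 9.63, 9.82 and 10.3 FPKM with geniposide and 17.6, 16.9 and 17.4 FPKM in control HepG2-labelled cells, and 13.7, 15.5 and 18.1 FPKM with geniposide and 16.0, 16.7 and 17.0 FPKM in control Huh7-labelled cells. The groups were apart in HepG2-labelled cells, and in Huh7-labelled cells the third geniposide library was above every control. The changes were -0.75 in HepG2-labelled cells (adjusted p = 3.91e-05 by limma) and -0.08 in Huh7-labelled cells (adjusted p = 0.503), with a difference of -0.67 (adjusted p = 0.00193). Without the third geniposide library the change of NDUFB9 in Huh7-labelled cells was -0.18 and called (adjusted p = 0.0199 by limma). NDUFB5 was called in Huh7-labelled cells alone, with 4.04, 4.29 and 4.34 FPKM with geniposide and 4.84, 4.84 and 5.31 FPKM in control Huh7-labelled cells, a fall of 0.20 (adjusted p = 0.0302 by limma). That call was lost without any 1 control library or without the first or second geniposide library of Huh7-labelled cells (adjusted p 0.052 to 0.116), and with TPM scaling (0.103), voom on recovered fragments (0.153), the replicate block (0.0672) or the fit of 6 samples alone (0.0956). NDUFB5 overlapped in HepG2-labelled cells, at -0.08, and the difference of 0.12 was not called (adjusted p = 0.353).

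Several complex I genes were called in neither line or in 1 alone. NDUFA10 averaged 7.29 ± 0.129 FPKM with geniposide and 7.85 ± 0.337 FPKM in control HepG2-labelled cells, and 13.3 ± 0.743 and 13.6 ± 0.184 FPKM in geniposide and control Huh7-labelled cells (SD, n = 3 each). Its log2 change was -0.09 in HepG2-labelled cells, with a 95% interval of -0.21 to 0.02, and -0.03 in Huh7-labelled cells, with an interval of -0.14 to 0.08. NDUFB11, an X-linked subunit, had 108, 107 and 117 FPKM with geniposide and 119, 124 and 115 FPKM in control HepG2-labelled cells, with overlapping groups and a change of -0.11. It shares 44.85% of its exonic length with RBM10 on the other strand, so its level is uncertain. NDUFC2 fell in HepG2-labelled cells by 0.38 (adjusted p = 0.0122 by limma) and was at -0.19 in Huh7-labelled cells (adjusted p = 0.174). In all, 12 of the 36 tested complex I genes were not called in HepG2-labelled cells and 26 in Huh7-labelled cells.

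Complex II oxidises succinate and belongs to the citric acid cycle as well as to the respiratory chain. SDHA, its flavoprotein, had 66.4, 67.0 and 68.3 FPKM with geniposide and 75.3, 79.8 and 72.4 FPKM in control HepG2-labelled cells, and 22.7, 24.5 and 20.0 FPKM with geniposide and 24.4, 23.8 and 23.8 FPKM in control Huh7-labelled cells. The HepG2-labelled groups were apart, but the change of -0.17 missed the threshold (adjusted p = 0.0626 by limma), and the Huh7-labelled groups overlapped at -0.10 (adjusted p = 0.298). SDHA has named pseudogene copies that held 6.82% as many fragments as SDHA itself, so its level carries that uncertainty.

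SDHB, the iron-sulphur subunit that passes electrons from the flavin towards ubiquinone (ENSG00000117118, chr1:17018722-17054170, minus strand, hg38), was the member of complex II with the lowest estimates. It had 21.9, 21.9 and 23.1 FPKM with geniposide and 35.6, 37.7 and 36.1 FPKM in control HepG2-labelled cells. In Huh7-labelled cells SDHB had 26.2, 28.1 and 24.1 FPKM with geniposide and 35.5, 38.7 and 37.6 FPKM in controls. All geniposide libraries lay below all controls. The falls were 0.69 in HepG2-labelled cells (SE 0.059, adjusted p = 8.98e-06 by limma) and 0.50 in Huh7-labelled cells (SE 0.059, adjusted p = 0.000143), and their difference was not called (adjusted p = 0.125).

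The membrane anchors of complex II were lower by less. SDHD had 15.3, 14.4 and 15.3 FPKM with geniposide and 20.2, 20.6 and 19.4 FPKM in control HepG2-labelled cells, and 11.8, 12.8 and 16.0 FPKM with geniposide and 17.9, 17.6 and 16.7 FPKM in control Huh7-labelled cells. The groups did not overlap in either line. SDHD fell by 0.40 in HepG2-labelled and 0.35 in Huh7-labelled cells (adjusted p = 0.00398 and 0.0104 by limma). SDHC fell in Huh7-labelled cells by 0.24 (adjusted p = 0.007), and in HepG2-labelled cells its change was -0.13 (adjusted p = 0.0747). Fitting the 6 Huh7-labelled samples alone ended the calls of SDHC (adjusted p = 0.0507) and SDHD (adjusted p = 0.084) there.

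Complex III takes electrons from ubiquinol to cytochrome c. CYC1, the cytochrome c1 that docks cytochrome c, had 90.4, 87.8 and 99.8 FPKM with geniposide and 151, 149 and 145 FPKM in control HepG2-labelled cells. In Huh7-labelled cells CYC1 had 98.4, 107 and 113 FPKM with geniposide and 123, 118 and 112 FPKM in controls. The groups were well apart in HepG2-labelled cells and overlapped in Huh7-labelled cells. CYC1 fell by 0.67 in HepG2-labelled cells (SE 0.066, adjusted p = 1.91e-05 by limma), its change in Huh7-labelled cells was -0.15 (adjusted p = 0.099), and the difference was -0.52 (adjusted p = 0.00242). Without the third geniposide library of Huh7-labelled cells its change there was -0.20 and called (adjusted p = 0.02 by limma).

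The Rieske iron-sulphur protein UQCRFS1 fell in both lines. It averaged 21.0 ± 2.39 FPKM with geniposide and 31.6 ± 1.44 FPKM in control HepG2-labelled cells, and 23.6 ± 1.34 and 34.8 ± 1.73 FPKM in geniposide and control Huh7-labelled cells (SD, n = 3 each). The fall was 0.57 in HepG2-labelled and 0.54 in Huh7-labelled cells (adjusted p = 0.000193 and 0.000485 by limma), with a difference of -0.03 and a 95% interval of -0.28 to 0.21. The core protein UQCRC1 had 88.7, 86.0 and 90.0 FPKM with geniposide and 124, 124 and 118 FPKM in control HepG2-labelled cells, a fall of 0.46 (adjusted p = 9.43e-05). In Huh7-labelled cells UQCRC1 had 94.0, 98.4 and 109 FPKM with geniposide and 99.6, 95.2 and 97.7 FPKM in controls, overlapping, and the difference of the changes was -0.51 (adjusted p = 0.00136).

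The small subunit UQCR10 fell without overlap in both lines. It had 36.4, 34.9 and 40.7 FPKM with geniposide and 59.8, 58.2 and 60.3 FPKM in control HepG2-labelled cells, and 76.7, 75.4 and 80.0 FPKM with geniposide and 105, 103 and 101 FPKM in control Huh7-labelled cells. The falls were 0.66 in HepG2-labelled and 0.41 in Huh7-labelled cells (SE 0.056 each, adjusted p = 8.24e-06 and 0.000345 by limma). UQCRHL, a near-identical copy of UQCRH whose reads the counting may have split, ranged from 2.63 to 5.00 FPKM and was called in neither line.

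CYCS (ENSG00000172115, chr7:25120091-25125361, minus strand, hg38) encodes the mobile carrier cytochrome c, which also takes part in apoptosis when it leaves the mitochondrion. It had 19.7, 18.4 and 19.2 FPKM with geniposide and 30.1, 29.5 and 30.7 FPKM in control HepG2-labelled cells. In Huh7-labelled cells CYCS had 30.4, 29.0 and 56.3 FPKM with geniposide and 49.0, 45.5 and 48.0 FPKM in controls. The first 2 geniposide libraries of Huh7-labelled cells lay below all controls and the third above them. CYCS fell by 0.63 in HepG2-labelled cells (SE 0.19, adjusted p = 0.0209 by limma), a call lost without HepG2-labelled control library 1 or 3 or geniposide library 2 or 3 (adjusted p 0.0504 to 0.0608) or with no filter (0.0529). The SE there is shared over all 12 samples and so includes the spread of the third Huh7-labelled library. In Huh7-labelled cells the change was -0.36 (adjusted p = 0.174), and without that library it was -0.66 and called. The 40 named pseudogenes of CYCS held 1.32% as many fragments as CYCS.

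The same crossing was seen in 11 subunit genes. Of the 54 genes whose first and second geniposide libraries of Huh7-labelled cells both lay below all controls, 35 had the third below as well and 11 had it above all controls. These 11 were NDUFA6, NDUFA10, NDUFB2, NDUFB4, NDUFB9, NDUFS1 and NDUFS8 of complex I, UQCRQ of complex III, CYCS, ATP5PD of complex V and the inhibitor ATP5IF1.

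**Figure D3:**
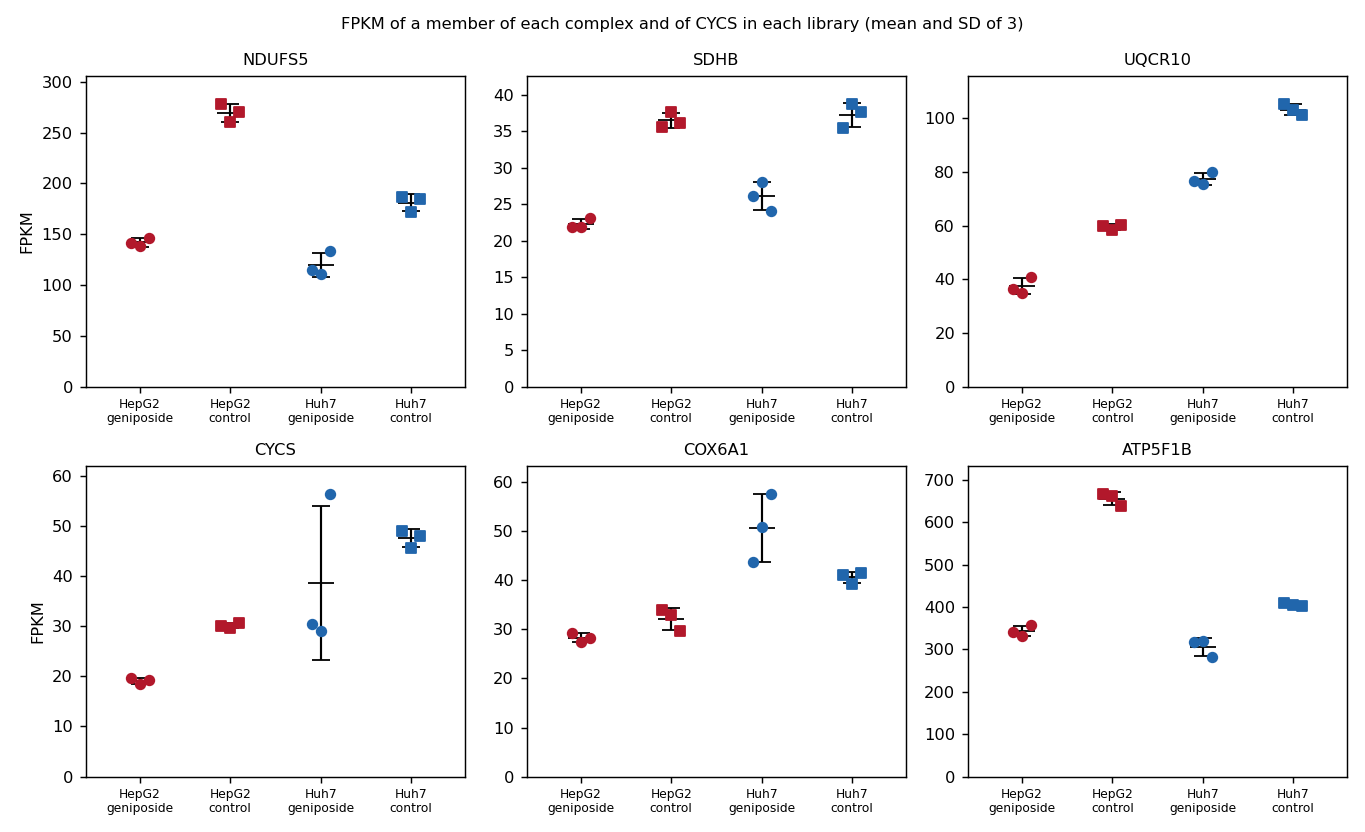
FPKM of NDUFS5, SDHB, UQCR10, CYCS, COX6A1 and ATP5F1B in each library (vertical axes from 0), 1 point per library, with bars at the mean and SD of 3. The third geniposide library of Huh7-labelled cells stands at 56.3 FPKM for CYCS, above the controls at 45.5 to 49.0 FPKM.

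Complex IV was the one complex with calls in both directions. COX6B1, which lies on the intermembrane-space side where cytochrome c docks, had 66.4, 63.0 and 73.5 FPKM with geniposide and 97.8, 97.6 and 96.0 FPKM in control HepG2-labelled cells. In Huh7-labelled cells COX6B1 had 56.9, 59.6 and 50.5 FPKM with geniposide and 102, 85.4 and 95.2 FPKM in controls. The groups were apart in both lines. COX6B1 fell by 0.52 in HepG2-labelled cells (SE 0.081, adjusted p = 0.000472 by limma) and by 0.75 in Huh7-labelled cells (SE 0.081, adjusted p = 8.75e-05).

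COX6A1, the widely expressed isoform of COX6A (ENSG00000111775, chr12:120438090-120440742, plus strand, hg38), went the other way in Huh7-labelled cells. In HepG2-labelled cells it had 29.3, 27.4 and 28.2 FPKM with geniposide and 33.9, 32.9 and 29.6 FPKM in controls. In Huh7-labelled cells COX6A1 had 43.7, 50.8 and 57.6 FPKM with geniposide and 41.0, 39.3 and 41.5 FPKM in controls. All 3 geniposide libraries were below the controls in HepG2-labelled cells and above them in Huh7-labelled cells. Its change in HepG2-labelled cells was -0.17 (adjusted p = 0.138 by limma). COX6A1 rose by 0.30 in Huh7-labelled cells (SE 0.088, adjusted p = 0.0208 by limma), a call lost without Huh7-labelled control library 1 or 2 or geniposide library 2 (adjusted p 0.0504 to 0.07) and in the fit of 6 samples alone (adjusted p = 0.0946). The difference was -0.48 (adjusted p = 0.0162). Named pseudogene copies of COX6A1 held 8.96% as many fragments as COX6A1 itself. A further limit is that 13.0% of its exonic length is shared with AL021546.1, so its level carries both uncertainties.

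COX7A2L (also called SCAF1), which helps to join complexes III and IV into supercomplexes, also rose in Huh7-labelled cells. In HepG2-labelled cells it had 13.1, 13.4 and 14.5 FPKM with geniposide and 13.0, 12.6 and 12.4 FPKM in controls, and the change of 0.10 was not called (adjusted p = 0.239 by limma). In Huh7-labelled cells COX7A2L had 12.6, 13.5 and 14.0 FPKM with geniposide and 11.4, 10.0 and 11.1 FPKM in controls, with no overlap and a log2 change of 0.28 (SE 0.061, adjusted p = 0.00493 by limma). The difference between the lines was -0.19 and not called (adjusted p = 0.136). The subunit COX7A2 fell by 0.41 in HepG2-labelled cells (adjusted p = 0.00223), with a change of -0.07 in Huh7-labelled cells (adjusted p = 0.574) and a difference of -0.34 that was not called (adjusted p = 0.0505).

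COX8C, a testis-restricted isoform of COX8, was the third higher call in Huh7-labelled cells and rests on few reads. It had 10, 15 and 10 fragments with geniposide and 2, 2 and 2 in control Huh7-labelled cells, or 1.01, 1.61 and 1.01 FPKM and 0.217, 0.223 and 0.227 FPKM. The controls lay below the level of 3 fragments, and the gene passed the filter only through the geniposide group. Its fitted change of 0.84 (adjusted p = 0.000396 by limma) depends on the pseudocount, and because of the filter its call supports nothing. Without it 2 of 82 genes were higher in Huh7-labelled cells. In HepG2-labelled cells COX8C had at most 2 fragments in any library. COX8A, the common isoform, had 122, 118 and 156 FPKM with geniposide and 189, 193 and 191 FPKM in control HepG2-labelled cells, a fall of 0.54 (adjusted p = 0.00156). In Huh7-labelled cells COX8A overlapped at 165 to 191 FPKM with geniposide and 168 to 190.2 FPKM in controls. Of the exonic length of COX8A, 34.5% is shared with AP000721.1, so its level is uncertain.

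The remaining complex IV subunits gave lower calls or none. NDUFA4, long listed under complex I, averaged 21.6 ± 2.42 FPKM with geniposide and 29.1 ± 1.29 FPKM in control HepG2-labelled cells, and 21.8 ± 1.32 and 27.8 ± 1.22 FPKM in geniposide and control Huh7-labelled cells (SD, n = 3 each). It fell by 0.42 in HepG2-labelled and 0.34 in Huh7-labelled cells (adjusted p = 0.00149 and 0.00772 by limma). COX7B, an X-linked subunit, fell by 0.53 in HepG2-labelled cells (adjusted p = 0.0179), a call lost without HepG2-labelled control library 1 or 3 or geniposide library 2 (adjusted p 0.0547 to 0.0744), and by 0.62 in Huh7-labelled cells (adjusted p = 0.0106), a call lost in the fit of 6 samples alone (adjusted p = 0.0575). COX5A, a subunit on the matrix side, fell in Huh7-labelled cells by 0.38 (adjusted p = 0.0263), a call lost without any 1 Huh7-labelled control library (adjusted p 0.0598 to 0.076), with no filter (0.0599), with TPM scaling (0.0623) and in the fit of 6 samples alone (0.134). COX4I1, the common isoform of the subunit through which ATP regulates the enzyme, averaged 51.6 ± 3.40 FPKM with geniposide and 57.7 ± 0.0711 FPKM in control HepG2-labelled cells (SD, n = 3 each). Its fall of 0.16 passed the threshold by a margin that vanished without any 1 HepG2-labelled control library or without geniposide library 1 or 2 of that line (adjusted p 0.0953 to 0.189), and without Huh7-labelled control library 2 or 3 or geniposide library 2 (adjusted p 0.0583 to 0.0692). It was also lost with no filter (0.0864), TPM scaling (0.177), median-of-ratios scaling (0.0845), voom (0.0672) and the replicate block (0.121). In Huh7-labelled cells it was at 0.00 (adjusted p = 0.981).

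The ATP synthase has a catalytic F1 head and a membrane part that holds the ring of c subunits. ATP5F1B, the catalytic beta subunit (ENSG00000110955, chr12:56638175-56646068, minus strand, hg38), had 341, 332 and 357 FPKM with geniposide and 667, 662 and 638 FPKM in control HepG2-labelled cells. In Huh7-labelled cells ATP5F1B had 317, 320.1 and 283 FPKM with geniposide and 409.6, 406 and 403 FPKM in controls. The groups were far apart in both lines, and the third geniposide library of Huh7-labelled cells was the lowest of its group. ATP5F1B fell by 0.93 in HepG2-labelled cells (SE 0.058, adjusted p = 1.09e-06 by limma) and by 0.41 in Huh7-labelled cells (SE 0.058, adjusted p = 0.000426), with a difference of -0.52 (adjusted p = 0.00121). ATP5F1A, the alpha subunit of the same head, averaged 38.2 ± 1.65 FPKM with geniposide and 61.9 ± 1.60 FPKM in control HepG2-labelled cells, and 31.1 ± 3.76 and 41.5 ± 0.589 FPKM in geniposide and control Huh7-labelled cells (SD, n = 3 each). ATP5F1A fell by 0.68 in HepG2-labelled and 0.41 in Huh7-labelled cells (adjusted p = 4.61e-05 and 0.00187).

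The c ring is built from a single mature protein made from ATP5MC1, ATP5MC2 and ATP5MC3, whose products differ in the leader that is cut off on import. ATP5MC1 (ENSG00000159199, chr17:48892765-48895871, plus strand, hg38) had 14.8, 13.8 and 16.1 FPKM with geniposide and 45.3, 49.5 and 45.9 FPKM in control HepG2-labelled cells. In Huh7-labelled cells ATP5MC1 had 16.5, 17.9 and 23.6 FPKM with geniposide and 37.7, 34.6 and 37.1 FPKM in controls. The groups were far apart. ATP5MC1 fell by 1.59 in HepG2-labelled cells (SE 0.11, adjusted p = 2.08e-06 by limma) and by 0.90 in Huh7-labelled cells (SE 0.11, adjusted p = 0.000169), the lowest estimate of all 83 genes in both lines, and the difference was -0.69 (adjusted p = 0.00812).

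ATP5MC2 did not follow it. It had 65.0, 60.4 and 71.9 FPKM with geniposide and 69.8, 64.8 and 65.0 FPKM in control HepG2-labelled cells, with overlapping groups and a log2 change of -0.02 (SE 0.063, adjusted p = 0.865 by limma). In Huh7-labelled cells it had 63.0, 67.9 and 65.0 FPKM with geniposide and 59.0, 56.8 and 58.6 FPKM in controls, above them all, but the change of 0.16 was not called (adjusted p = 0.0689). ATP5MC3 had 12.1, 10.7 and 13.8 FPKM with geniposide and 21.3, 19.5 and 19.2 FPKM in control HepG2-labelled cells. In Huh7-labelled cells ATP5MC3 had 18.8, 18.9 and 21.5 FPKM with geniposide and 32.2, 31.0 and 31.7 FPKM in controls. It fell by 0.68 in HepG2-labelled and 0.66 in Huh7-labelled cells (adjusted p = 9.77e-05 and 0.000216), with a difference of -0.02 and a 95% interval of -0.28 to 0.24.

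The make-up of the c-subunit transcripts was also read within each library. ATP5MC2 made up 70.8%, 71.1% and 70.6% of the summed FPKM of the 3 genes with geniposide and 51.2%, 48.5% and 50.0% in control HepG2-labelled cells. In Huh7-labelled cells its share was 64.1%, 64.8% and 59.1% with geniposide and 45.8%, 46.4% and 46.0% in controls. No library of one group reached the range of the other, and the exact two-sided permutation p was 0.1 in each line, the smallest that 3 against 3 can give. The summed level was 92.9 ± 8.46 FPKM with geniposide and 133 ± 3.06 FPKM in control HepG2-labelled cells, and 104 ± 5.93 and 126 ± 3.39 FPKM in geniposide and control Huh7-labelled cells (SD, n = 3 each). These shares are ratios within a library and do not change with its scaling. Their size does depend on the exonic lengths used, 2615 bases for ATP5MC1, 3991 for ATP5MC2 and 6780 for ATP5MC3, the same in every library. In HepG2-labelled control library 1 ATP5MC3 had 2146 fragments and ATP5MC1 1761, yet their shares were 15.6% and 33.2%.

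**Figure D4:**
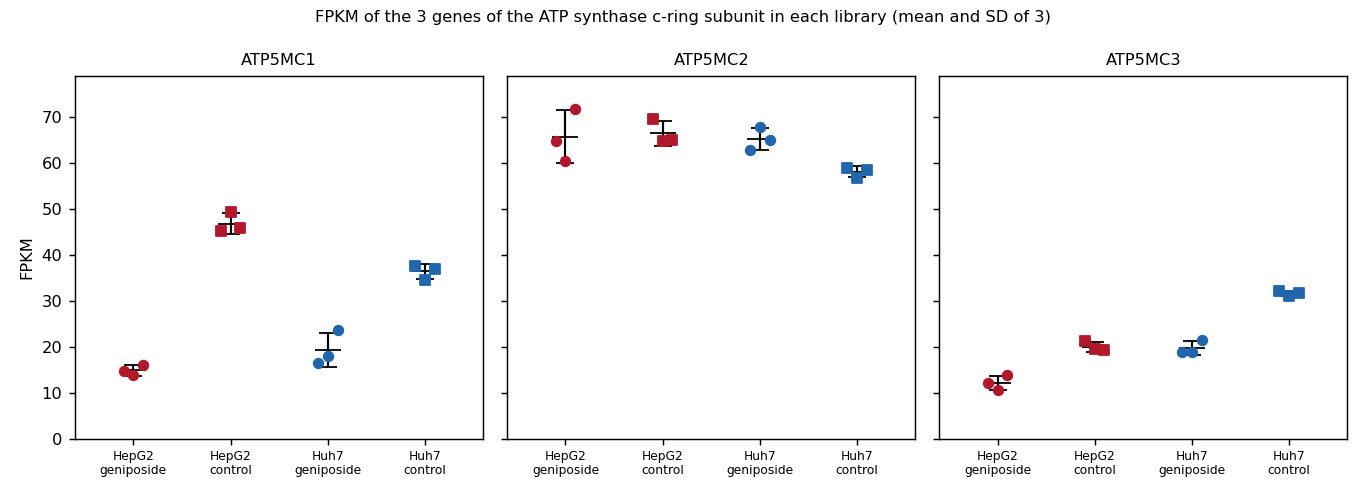
FPKM of ATP5MC1, ATP5MC2 and ATP5MC3 in each library (vertical axes from 0), 1 point per library, with bars at the mean and SD of 3. ATP5MC1 averaged 14.9 FPKM with geniposide and 46.9 FPKM in control HepG2-labelled cells, while ATP5MC2 averaged 65.8 and 66.5 FPKM there.

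The rest of complex V was lower or not called. ATP5MG, a membrane subunit, fell in HepG2-labelled cells by 0.34 (adjusted p = 0.0167 by limma), a call lost without HepG2-labelled control library 2 or geniposide library 1 or 2 (adjusted p 0.0571 to 0.0694), and was at 0.00 in Huh7-labelled cells. ATP5ME had 16.9, 17.4 and 18.4 FPKM with geniposide and 22.7, 23.0 and 27.1 FPKM in control Huh7-labelled cells, a fall of 0.44 (adjusted p = 0.0338) that was lost without any 1 control library or the first or second geniposide library of that line (adjusted p 0.0542 to 0.121), with no filter (0.0742) or with TPM scaling (0.0749). In HepG2-labelled cells ATP5ME averaged 7.26 ± 0.283 FPKM with geniposide and 8.44 ± 2.44 FPKM in controls (SD, n = 3 each) and was not called. Since 61.6% of its exonic length is shared with other genes, mainly MYL5 on the other strand, and no strand setting is given in the sources used here, reads of ATP5ME and its neighbour cannot be told apart. ATP5IF1, which inhibits the synthase when it runs backwards, had 25.9, 24.1 and 29.3 FPKM with geniposide and 36.5, 32.1 and 34.4 FPKM in control HepG2-labelled cells. Its fall of 0.37 (adjusted p = 0.0247) was lost without HepG2-labelled control library 1 or 3 or geniposide library 1 or 2 (adjusted p 0.0616 to 0.0928), with no filter (0.0578) or with TPM scaling (0.0507). ATP5S was called in neither line, at -0.11 in HepG2-labelled and -0.10 in Huh7-labelled cells.

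The same genes were then followed across the lines. Lower calls in both lines numbered 27 of 83, lower calls in HepG2-labelled cells alone 31, and lower calls in Huh7-labelled cells alone 5 (ATP5ME, COX5A, COX7C, NDUFB5 and SDHC). A call in 1 line alone does not show that the lines differ, so the difference of the changes, HepG2-labelled minus Huh7-labelled, was tested. It was lower for 22 genes (26.5%; 21 of 82 without COX8C) and higher for 0, against 13.7% lower and 14.1% higher of all tested genes and 16.5% and 17.6% of those with a mean of 5 FPKM or more. Its median was -0.19. By complex the 22 were 10 of 36 in complex I, 0 of 4 in complex II, 5 of 10 in complex III, 3 of 13 in complex IV and 4 of 17 in complex V. The change was more negative in HepG2-labelled cells for 64 of 83 genes. Without the third geniposide library of Huh7-labelled cells 30 were lower and 3 higher, and these 3 are named after their values were seen: NDUFB4 at 0.37, NDUFB3 at 0.24 and SDHC at 0.16. Across the 83 genes the 2 lines' changes, which share no sample, had a Pearson r of 0.61 and a Spearman rho of 0.51, given as a description across genes that are not independent.

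**Figure D5:**
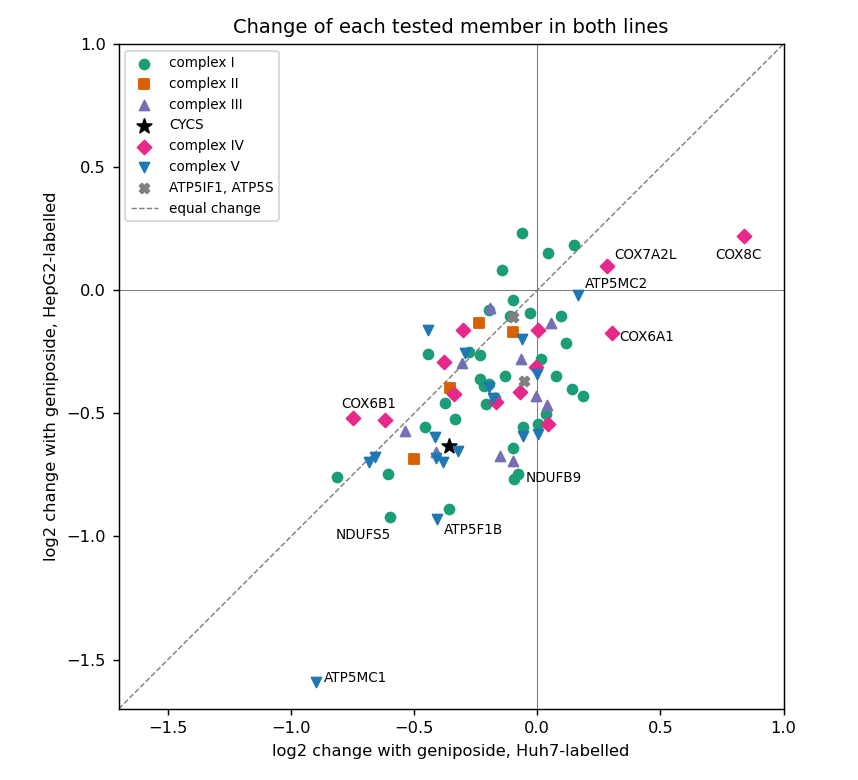
Log2 change with geniposide of each of the 83 tested subunit genes in HepG2-labelled cells (vertical axis) and Huh7-labelled cells (horizontal axis), 1 point per gene, coloured by complex, with the diagonal of equal change. 64 of 83 points lie below the diagonal, and ATP5MC1 stands at -1.59 in HepG2-labelled and -0.90 in Huh7-labelled cells.

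Control cells of the 2 lines also differed in single subunits. By limma's moderated test 26 of the 83 were higher and 23 lower in HepG2-labelled than in Huh7-labelled controls, against 36.1% and 35.8% of all tested genes and 44.2% and 31.7% of those with a mean of 5 FPKM or more, and the median was -0.03. This split depends on scaling. With TPM scaling 12 were higher and 49 lower and with voom on recovered fragments 11 and 49, as the median of all tested genes moved to -0.27 and -0.30 and the median of the subunit genes relative to it was -0.04 and -0.02. Apart from SDHB, the genes named next kept their direction and call under both. SDHA averaged 75.8 ± 3.73 FPKM in HepG2-labelled and 24.0 ± 0.342 FPKM in Huh7-labelled controls (SD, n = 3 each), a log2 difference of 1.62 (SE 0.067, adjusted p = 1.96e-09), whereas its partner SDHB averaged 36.5 ± 1.06 FPKM in HepG2-labelled and 37.3 ± 1.64 FPKM in Huh7-labelled controls and was not called, though it was lower by TPM scaling (-0.308, adjusted p = 0.000598) and by voom (-0.317, adjusted p = 0.000545). NDUFC2 was higher at 11.7 and 3.92 FPKM, NDUFB11 at 119 and 60.1 FPKM and NDUFB5 at 10.4 and 4.99 FPKM in HepG2-labelled and Huh7-labelled controls. ATP5ME was lower at 8.44 and 24.3 FPKM, NDUFB6 at 26.5 and 49.4 FPKM, UQCR10 at 59.4 and 103 FPKM and CYCS at 30.1 and 47.5 FPKM.

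The factors that build the complexes were read from lists of assembly genes, beside the shares of all tested genes given above. For complex I, 15 of 18 were lower and 0 higher in HepG2-labelled cells, with a median log2 change of -0.49, and 4 were lower and 1 higher in Huh7-labelled cells, with a median of -0.17. NDUFAF1, an assembly factor of the membrane arm, averaged 4.92 ± 0.193 FPKM with geniposide and 9.04 ± 0.403 FPKM in control HepG2-labelled cells, and 4.90 ± 0.144 and 7.34 ± 0.495 FPKM in geniposide and control Huh7-labelled cells (SD, n = 3 each), falls of 0.76 in HepG2-labelled and 0.50 in Huh7-labelled cells (adjusted p = 3.77e-06 and 0.00012 by limma). NDUFAF8 had the lowest estimate in HepG2-labelled cells at -1.25. For complex IV, 13 of 22 were lower and 1 higher in HepG2-labelled cells, and 10 lower and 2 higher in Huh7-labelled cells. SCO1, which delivers copper to complex IV, fell by 0.62 and 0.50, and COX19, another copper-handling protein of the intermembrane space, rose by 0.54 and 0.58 in HepG2-labelled and Huh7-labelled cells.

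Of the 4 listed assembly factors of complex II, 2 rose in both lines. SDHAF4, which binds the flavinated SDHA before it joins SDHB, averaged 4.02 ± 0.426 FPKM with geniposide and 2.50 ± 0.316 FPKM in control HepG2-labelled cells. In Huh7-labelled cells SDHAF4 averaged 14.2 ± 1.48 FPKM with geniposide and 7.07 ± 0.338 FPKM in controls (SD, n = 3 each). It rose by 0.52 in HepG2-labelled and 0.91 in Huh7-labelled cells (adjusted p = 0.00113 and 6.23e-05 by limma). SDHAF1, which helps to insert the iron-sulphur clusters of SDHB, rose by 0.29 in HepG2-labelled and 0.28 in Huh7-labelled cells (adjusted p = 0.0247 and 0.0334), and the other 2 factors of the list were not called in either line, with estimates down to -0.22 in HepG2-labelled and -0.20 in Huh7-labelled cells. For complex III, 3 of 7 were lower in HepG2-labelled and 2 of 7 in Huh7-labelled cells, and for complex V 1 of 4 was lower in HepG2-labelled cells, with 1 lower and 2 higher in Huh7-labelled cells.

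Among partners outside the complexes, 10 of 13 mitochondrially encoded subunits were lower in HepG2-labelled cells and 7 of 13 in Huh7-labelled cells, with 0 higher in either. NDUFA4L2, a relative of NDUFA4 known as a hypoxia-induced gene, averaged 166 ± 6.24 FPKM with geniposide and 31.3 ± 2.28 FPKM in control HepG2-labelled cells, a rise of 2.37 (SE 0.16, adjusted p = 1.65e-06 by limma). In Huh7-labelled cells NDUFA4L2 averaged 2.40 ± 0.996 FPKM with geniposide and 0.343 ± 0.113 FPKM in controls (SD, n = 3 each), a rise of 1.30 (adjusted p = 0.000159). Of the 6 listed oxygen-linked genes, with NDUFA4L2 counted among them, 2 rose and 1 fell in HepG2-labelled cells and 2 rose in Huh7-labelled cells. Of 15 regulators of mitochondrial biogenesis, 3 rose and 4 fell in HepG2-labelled cells and 2 rose and 6 fell in Huh7-labelled cells. Of all tested genes 21.0% were higher and 21.5% lower in HepG2-labelled cells, and 16.4% and 18.1% in Huh7-labelled cells. PPARGC1A, a coactivator of respiratory genes, rose by 0.55 in HepG2-labelled and 0.37 in Huh7-labelled cells, while its relative PPARGC1B fell by 0.57 in HepG2-labelled and 0.68 in Huh7-labelled cells. TFB2M, a mitochondrial transcription factor, fell by 0.62 in HepG2-labelled and 0.58 in Huh7-labelled cells. The gene for NRF1 itself rose by 0.30 in HepG2-labelled and 0.23 in Huh7-labelled cells (adjusted p = 0.00417 and 0.0247). The subunit genes with an NRF1 core in the promoter window had a median change of -0.40 in HepG2-labelled and -0.26 in Huh7-labelled cells, and those without one -0.37 in HepG2-labelled and -0.10 in Huh7-labelled cells, over 14 genes with and 51 without a match. For the YY1 core the medians were -0.46 in HepG2-labelled and -0.10 in Huh7-labelled cells with a match, and -0.36 and -0.13 without one. For the ETS core they were -0.43 in HepG2-labelled and -0.01 in Huh7-labelled cells with a match, and -0.36 and -0.18 without one, so that the side with the lower median differed between motifs in Huh7-labelled cells.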

How the data were processed

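Poly(A)-selected RNA from 12 samples, 3 in each of 4 groups, was sequenced, per the labels' protocols. The authors deposited gene-level FPKM values on hg38, with CASAVA and fastp named in the submitters' processing notes; for their versions, the aligner, the counter and the strand setting nothing was found in the sources used here. Gene coordinates and exonic lengths of all 91 genes equal those of GENCODE 29. All FPKM values were whole multiples of 1 fragment within a tolerance of 0.05 fragments (100% of values), which gave 15056655 to 17211659 fragments per library. The authors' divisor was 0.895 to 0.914 of that total in HepG2-labelled and 1.09 to 1.17 of it in Huh7-labelled libraries, so levels compared between lines depend on scaling. Floors of 3 fragments cover counting error only.

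Genes with 1 FPKM or more in at least 3 of 12 samples (15518) were fitted on log2(FPKM + 1) with limma 3.58.1 in R 4.3.3, with 4 group means and a trended variance. Tests were two-sided, and p-values were adjusted by Benjamini-Hochberg over all genes fitted, with a threshold of 0.05. The script was tested on simulated data. Counts and medians by complex carry no test. Alternatives were a pseudocount of 0.1, no filter, a filter of 5 FPKM, TPM scaling, median-of-ratios scaling, voom on the recovered fragments, a replicate block, a fit of 6 samples alone, and leaving out each library. Genes were named by rule: the 4 smallest p-values per direction among the called genes of each comparison, the highest and lowest gene of each complex, and a list of core subunits and isoforms; assembly genes and others are named with their lists. The results of 1 subunit gene are not reported here, though it is counted. The members and lists were chosen with earlier results of these data known. Promoter windows come from RefSeq's GRCh38.p14 annotation, and motifs were searched on both strands.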

Additional observations from a re-analysis of the deposited data

Results flagged for a closer look

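The tests found that 22 subunit genes changed differently with geniposide in the lines, all with a lower change in HepG2-labelled cells. The differences below are log2 changes, HepG2-labelled minus Huh7-labelled, past an adjusted p of 0.05 by limma over all 15518 genes.

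In complex I, the core subunits NDUFS1, NDUFS8 and NDUFV1 differed by -0.49, -0.54 and -0.29. The accessory subunits NDUFA3 and NDUFB9 differed by -0.67 each, NDUFV3 by -0.62, NDUFB10 by -0.55, NDUFA11 by -0.43 and NDUFS5 by -0.32. NDUFB10 averaged 52.6 ± 5.15 FPKM with geniposide and 77.0 ± 1.64 FPKM in control HepG2-labelled cells, but 115 ± 5.94 FPKM with geniposide and 115 ± 2.68 FPKM in control Huh7-labelled cells (SD, n = 3 each).

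In complex III, UQCRQ differed by -0.59, CYC1 by -0.52, UQCRC1 by -0.51, UQCR11 by -0.43 and UQCR10 by -0.25. In complex IV, COX8C differed by -0.62 on 47 fragments over all 12 libraries, COX8A by -0.59 and COX6A1 by -0.48. In complex V, ATP5MC1 differed by -0.69, ATP5PD by -0.59, ATP5F1D by -0.53 and ATP5F1B by -0.52.

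Of these 22 genes, 10 had the third geniposide library of Huh7-labelled cells above all controls: NDUFA11, NDUFB9, NDUFS1, NDUFS8, NDUFV3, UQCRC1, UQCRQ, COX6A1, COX8C and ATP5PD. For COX6A1 and COX8C the other 2 geniposide libraries lay above the controls as well. The part of that library in the differences was not tested beyond leaving it out, and without it all 22 remained called. The differences of NDUFS1 (adjusted p 0.0511 to 0.057), NDUFS5 (0.0548 to 0.0818) and UQCR10 (0.0561 to 0.0917) were lost without several other single libraries. Other genes of the 22 were lost in such runs too. The fewest, 16, remained called without Huh7-labelled control library 2, HepG2-labelled control library 1 or HepG2-labelled geniposide library 2. With the replicate block 17 of the 22 remained called, and NDUFS1 (0.0521), NDUFS5 (0.0508), UQCR10 (0.0811) and COX8C (0.0597) were among those lost. With no filter 16 remained, and NDUFS1 (0.0575), NDUFS5 (0.076) and UQCR10 (0.0695) were among those lost. COX8C was also lost with a pseudocount of 0.1 (0.297) and voom (0.614), and since it passed the filter on low values only through the geniposide group of Huh7-labelled cells, its difference supports nothing, which leaves 21.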

How the results depend on the processing

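No called treatment change of a subunit gene changed sign under any alternative run. Of the 58 lower calls in HepG2-labelled cells 53 to 58 remained under the alternatives that keep all 12 libraries or fit 6 alone, and of the 32 in Huh7-labelled cells 20 to 32. Higher calls in HepG2-labelled cells numbered 1 with a pseudocount of 0.1 and 3 with TPM scaling, and in Huh7-labelled cells 5 with TPM scaling. The separate fit of 6 samples alone gave 21 lower genes in Huh7-labelled cells. The complex II median in HepG2-labelled cells moved to -0.222 with TPM and -0.256 with median-of-ratios scaling. With TPM scaling 61.6% of all called genes were higher in Huh7-labelled cells, against 47.5% in the fit reported, and 40.1% of differences with voom, against 50.8%.

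Leaving out single libraries gave 48 to 66 lower and 0 to 1 higher subunit genes in HepG2-labelled cells, 23 to 44 lower and 2 to 4 higher in Huh7-labelled cells, 16 to 30 lower and 0 to 3 higher differences, and 19 to 30 lower and 23 to 28 higher between controls. Medians of complexes I to V ranged over -0.458 to -0.342, -0.312 to -0.256, -0.5 to -0.388, -0.389 to -0.242 and -0.629 to -0.513 in HepG2-labelled cells, and over -0.194 to -0.094, -0.368 to -0.248, -0.22 to -0.067, -0.107 to -0.022 and -0.356 to -0.264 in Huh7-labelled cells.

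Between control lines TPM scaling gave 12 higher and 49 lower genes and voom 11 and 49. With TPM and voom the estimates of ATP5MC2 (-0.086 and -0.093), COX4I1 (-0.001 and -0.009), COX6B1 (-0.229 and -0.237), COX7A2L (-0.051 and -0.059), NDUFA4 (-0.211 and -0.221) and NDUFB9 (-0.214 and -0.224) turned negative, by the construction of the scaling, which moves all genes. Replicate numbers did not pair the samples (correlations of same-numbered samples -0.0615 to 0.0201), and with the replicate block 56 genes were lower and 0 higher in HepG2-labelled cells, 29 and 3 in Huh7-labelled cells, 17 and 0 in the difference, and 22 and 27 between controls. With 3 samples a group, small changes were not detectable.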
